A study of Mus musculus with 18 samples.

Results

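Gm42418, AY036118, Lars2 and Cmss1 are 4 of the 30905 genes counted in this single-nucleus RNA-sequencing study of the mouse hippocampus (Hip) and prefrontal cortex (PFC). They were chosen by symbol, because their counts had already been seen to differ between germ-free and specific-pathogen-free libraries of these data, so every difference that involves the germ-free mice is given below as a description without a test. The study sampled 9 Kun Ming mice, an outbred stock, at 8 weeks of age, with 3 mice in each of 3 groups and both regions taken from every mouse, which gave 18 libraries. Germ-free (GF) mice were kept without microbes in isolators, colonized germ-free (CGF) mice were GF mice that had been colonized by sharing an isolator cage with SPF mice, and specific-pathogen-free (SPF) mice were raised under other conditions than both. The housing of SPF mice therefore differed from that of the other groups, while GF and CGF mice shared a germ-free start.

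Ribosomal RNA is made in the nucleolus by RNA polymerase I as one long precursor, which is cut at its transcribed spacers and trimmed into the 18S, 5.8S and 28S rRNAs. The repeats that encode it lie in arrays that are poorly placed in the reference genome, and rRNA carries no poly(A) tail, so a 3′ poly(A)-primed library should hold little of it. Gm42418 and AY036118 are annotated as long non-coding RNAs that lie on a copy of 18S rRNA sequence. Lars2 encodes the mitochondrial leucyl-tRNA synthetase, which loads leucine onto its tRNA in mitochondria. Cmss1 encodes a homologue of a yeast protein of the small ribosomal subunit processome.

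In GRCm38 (GENCODE vM21), Gm42418 (ENSMUSG00000098178) is a single exon of 1831 bases on the plus strand at chr17:39846958-39848788, and AY036118 (ENSMUSG00000105361) is a single exon of 923 bases on the minus strand at chr17:39847113-39848035. AY036118 lies wholly inside Gm42418 and is the exact reverse complement of its bases 156 to 1078. A gene annotated as rRNA on the minus strand, CT010467.1 (chr17:39846353-39848827), encloses Gm42418 and was not among the genes counted. Its longest transcript covers bases 1 to 1244 of Gm42418. RefSeq names the locus Rn18s-rs5, calls it a pseudogene and lists Gm42418 among its synonyms. The stretches printed next show how the pair is built. The first runs across base 1244 of Gm42418 (chr17:39848162-39848231, plus strand), and its capitals mark the part that the longest transcript of CT010467.1 covers, which reads as the 3′ end of 18S rRNA, while the lower-case part lies beyond that transcript but inside the gene. The others are both strands at the start of AY036118 (chr17:39848006-39848055, plus strand, and chr17:39847986-39848035, minus strand), and their capitals are complementary to each other.
Gm42418 at the 18S end: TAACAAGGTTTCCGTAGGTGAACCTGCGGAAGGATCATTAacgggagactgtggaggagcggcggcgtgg
Gm42418 at the AY036118 start: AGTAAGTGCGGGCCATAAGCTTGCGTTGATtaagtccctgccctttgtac
AY036118 start: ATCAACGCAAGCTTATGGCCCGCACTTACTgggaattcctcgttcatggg

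Lars2 (ENSMUSG00000035202, chr9:123366927-123462666, plus strand) and Cmss1 (ENSMUSG00000022748, chr16:57302000-57606864, minus strand) are protein-coding genes elsewhere in the genome. Their longest transcripts shared no run over 11 bases with Gm42418 on either strand, which was also the median over the longest transcripts of 55340 other genes. Only CT010467.1 and AY036118 aligned to Gm42418 over at least 100 bases. Introns were not searched. The longest run of A, at which an oligo(dT) primer could in principle pair, was 6 bases in Gm42418 and in Lars2, as 42.9% or more of genes held, and 4 bases in AY036118 and Cmss1. These stretches are given because all libraries were primed at A runs, with the run in capitals. The run of Gm42418 lies within the 18S part (chr17:39847155-39847184) and that of Lars2 in the 3′ UTR (chr9:123461726-123461755).
Gm42418 longest A run: gcgtttactttgAAAAAAttagagtgttca
Lars2 longest A run: tgttaacgtgggAAAAAAggcaaacatcag

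The 18 libraries held 138000 nuclei after removal of 1924 barcodes with over 10% mitochondrial UMIs. A UMI (unique molecular identifier) stands for 1 captured molecule. The SPF and CGF libraries of the PFC stood apart from all others in general measures. They held 20070604 to 26168411 UMIs each, with a median of 2353 to 3208 UMIs per nucleus, and 1.21% to 2.86% of UMIs were mitochondrial. The other 12 libraries held 48289446 to 71320063 UMIs each, with medians of 4678 to 7579 per nucleus and 0.0686% to 0.879% mitochondrial UMIs. Each of these measures moves with the results below. Depth and mitochondrial share therefore cannot be told apart from group and region between the SPF or CGF libraries of the PFC and the rest. Of 137458 distinct cell barcodes, 2437 occurred in more than 1 library, and any 2 libraries shared 0.0854% to 0.362% of the barcodes of the smaller one.

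Gm42418 was the most abundant of the 4 in every library. Levels are given as UMIs per 1000000 UMIs of the library (CPM). In the Hip, its level was 225, 315 and 259 in GF mice 5, 6 and 7. It was 776, 574 and 1711 in SPF mice 30, 31 and 32, and 926, 658 and 995 in CGF mice 17, 18 and 19. SPF mouse 32 lay above every other Hip library, and the GF libraries lay below the other 6. In the PFC, Gm42418 reached 173, 117 and 188 CPM in GF mice 5, 6 and 7. It reached 12221, 11991 and 17661 in SPF mice 30, 31 and 32, and 17287, 23883 and 17399 in CGF mice 17, 18 and 19. Among all genes of a library it ranked at place 2 in all 6 SPF and CGF libraries of the PFC, at 54 to 242 in those of the Hip, and at 430 to 1478 in the GF libraries.

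AY036118, the antisense partner within the 18S part, was at least 10 times less abundant than Gm42418 in each SPF and CGF library. Its level in CPM was 26.3, 27.2 and 22.9 in the GF Hip, 50.2, 40.9 and 71.0 in the SPF Hip, and 66.5, 65.4 and 74.5 in the CGF Hip, in the same order of mice. In the PFC it was 22.8, 17.2 and 18.8 in GF mice, 194, 179 and 256 in SPF mice, and 383, 465 and 378 in CGF mice. The CGF and SPF libraries of the PFC did not overlap for AY036118, nor did they for Cmss1. How many of all genes separated in this way was not counted.

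Cmss1 stayed within 89.7 to 91.9 CPM in the 3 GF Hip libraries. It was 165, 150 and 259 in the SPF Hip and 220, 204 and 237 in the CGF Hip. In the PFC it was 87.3, 75.9 and 82.5 in GF mice, 2659, 2601 and 3559 in SPF mice, and 4120, 5646 and 4249 in CGF mice. Lars2, like Cmss1, varied little between the Hip and PFC of GF mice. Its level was 33.7, 31.3 and 32.3 CPM in the GF Hip and 32.5, 29.2 and 32.8 in the GF PFC. In the Hip of SPF mice it was 61.4, 54.5 and 85.0, and of CGF mice 68.7, 60.2 and 74.1. In the PFC it was 491, 548 and 770 in SPF mice and 778, 1091 and 709 in CGF mice. Each of the 4 transcripts had its 3 GF libraries below the 6 others in both regions, in comparisons where 20.4% (Hip) and 30.8% (PFC) of all genes tested were called lower in GF than in SPF mice, and 21.2% and 29.9% lower than in CGF mice (edgeR, adjusted p under 0.05). Nothing is read from these counts, since the GF libraries were used to choose the genes.

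**Figure D1:**
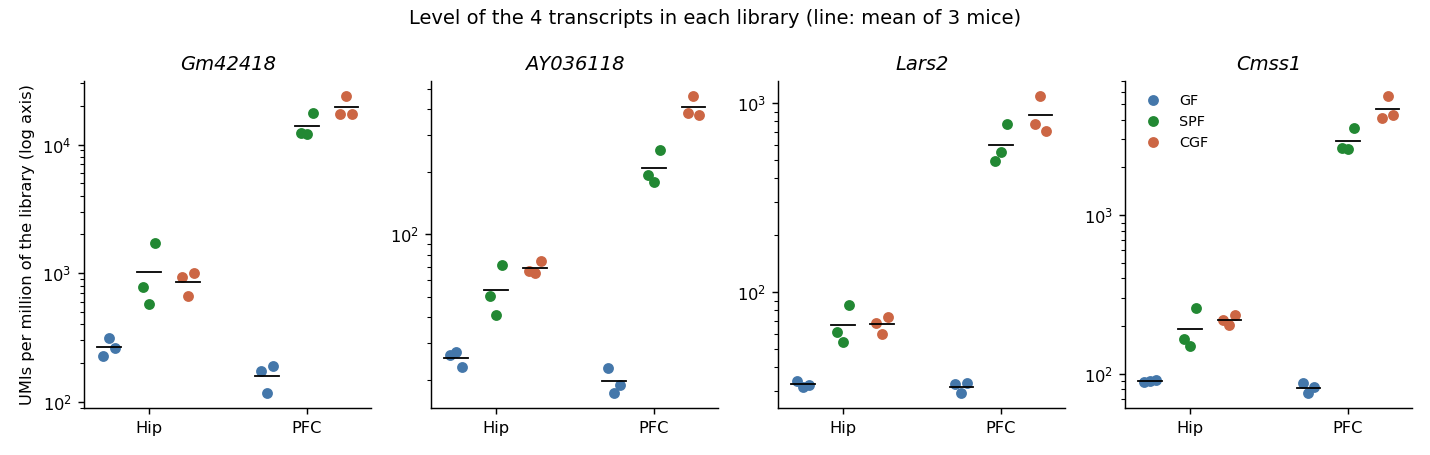
Level of each transcript in the 18 libraries, as CPM on a log axis, by region and group; points are libraries (mice) and lines are means of 3 mice. The SPF and CGF points of the PFC lie above all others for each transcript, with Gm42418 between 11991 and 23883 there and between 117 and 1711 elsewhere.

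The fitted fold changes put sizes on these descriptions. Relative to SPF mice, the level in GF mice was lower in the Hip by 4.11-fold for Gm42418, 2.28-fold for AY036118, 2.27-fold for Cmss1 and 2.22-fold for Lars2. In the PFC it was lower by 84.4-fold for Gm42418, 34.5-fold for Cmss1, 18.4-fold for Lars2 and 10.3-fold for AY036118. Against CGF mice, the values were 3.60, 3.01, 2.71 and 2.32 in the Hip for Gm42418, AY036118, Cmss1 and Lars2, and 116, 19.6, 53.7 and 25.7 in the PFC. These contrasts share their GF libraries and carry no test. The 4 transcripts held 0.0239% to 0.0464% of UMIs in the GF libraries, 0.0820% to 0.213% in the SPF and CGF Hip, and 1.53% to 3.11% in the SPF and CGF PFC.

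The comparison of PFC with Hip within SPF and within CGF mice was not used to choose the genes, although it draws on the SPF libraries that were. That choice could favour a high PFC level in SPF mice, so the adjusted p of SPF mice are not independent of it. In both groups the PFC libraries also differed from the Hip libraries in depth and mitochondrial share, which cannot be told apart from region here. All 4 transcripts were higher in the PFC than in the Hip in both groups. The fit of all 18 libraries, also used below for the difference between regions, did not pair the 2 regions of a mouse. Its SEs are therefore not within-mouse SEs. With the mouse as a block, no call of the 4 changed. In SPF mice, the log2 fold change was 3.88 ± 0.20 (SE, n = 3 mice) for Cmss1 (adjusted p = 4.31e-11), 3.73 ± 0.33 for Gm42418 (adjusted p = 3.29e-08), 3.11 ± 0.21 for Lars2 (adjusted p = 9.33e-10) and 1.90 ± 0.18 for AY036118 (adjusted p = 5.06e-08) by edgeR's quasi-likelihood test with Benjamini-Hochberg adjustment over 20773 genes. In CGF mice, it was 4.36 ± 0.34 for Gm42418 (adjusted p = 6.58e-09), 4.26 ± 0.20 for Cmss1 (adjusted p = 1.70e-11), 3.52 ± 0.21 for Lars2 (adjusted p = 2.46e-10) and 2.42 ± 0.18 for AY036118 (adjusted p = 2.92e-09) by the same edgeR test. Of all genes tested, 32.1% rose in SPF mice and 32.7% in CGF mice, and 66.2% and 66.5% were called in either direction, with 34.1% and 33.8% lower. The median log2 fold change over all genes was -0.05 in SPF mice and -0.01 in CGF mice. In CGF mice 49.2% of the called genes were higher in the PFC, against 57.7% when libraries were scaled by their totals in place of TMM (a trimmed mean of ratios to a reference library), with a median over all genes of 0.15, and 59.5% when the 4 transcripts were also left out of those totals, with a median of 0.18.

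Mouse by mouse, Gm42418 was 10.3 to 20.9 times as high in the PFC as in the Hip of SPF mice and 17.5 to 36.3 times in CGF mice. In the GF mice, the PFC level of Gm42418 was lower than that of the Hip in each mouse, with ratios of 0.772, 0.370 and 0.726. The GF ratios of Lars2 were 0.965, 0.933 and 1.02, so that no region was higher in all 3 mice. Fitted over the 3 GF mice, the log2 difference between PFC and Hip was -0.65 ± 0.30 (SE) for Gm42418, -0.29 ± 0.17 for AY036118, -0.06 ± 0.18 for Cmss1 and 0.04 ± 0.20 for Lars2, given without a test. The Lars2 value turned to -0.04 when libraries were scaled by their totals.

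The other comparison, CGF with SPF mice, sets the levels in colonized mice with a germ-free start beside those in SPF mice. The cause of a difference was not tested. It shares its SPF libraries with the contrast by which they were chosen. Counts at an unadjusted p under 0.05 are given here and below without the share of all genes, and nothing is read from them. In the Hip, edgeR called 0 of 4 (0.333% of all 19833 genes tested were called), with 1 of 4 at an unadjusted p under 0.05 and 0 of 4 by DESeq2. The log2 fold change of CGF over SPF was 0.40 ± 0.16 for AY036118 (adjusted p = 0.287), 0.25 ± 0.16 for Cmss1 (adjusted p = 0.505), 0.07 ± 0.14 for Lars2 (adjusted p = 0.862) and -0.19 ± 0.33 for Gm42418 (adjusted p = 0.830). The Gm42418 value rested on SPF mouse 32 and was 0.35 without it (adjusted p = 0.540, against 0.501 to 0.982 over all alternatives).

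In the PFC, AY036118 was higher in CGF than in SPF mice by 0.93 ± 0.17 on the log2 scale, 1.90-fold (edgeR, adjusted p = 0.0392). Each of the 3 CGF libraries lay above each SPF library, as was also so for Cmss1, a separation that was not counted over all genes. Of all 18401 genes tested, 0.418% were called. The call was lost when any of 7 of the 9 mice was left out, CGF mouse 17 or 19, SPF mouse 30 or 31 or any GF mouse, with an adjusted p of up to 0.149. Over all alternatives its adjusted p ranged from 2.61e-05 to 0.149 and the log2 fold change from 0.78 to 1.13. The other 3 did not pass the threshold, with log2 fold changes of 0.64 ± 0.18 for Cmss1 (adjusted p = 0.173, and 0.0182 by DESeq2), 0.48 ± 0.21 for Lars2 (adjusted p = 0.336) and 0.45 ± 0.24 for Gm42418 (adjusted p = 0.429). Whether the difference between CGF and SPF mice was itself unlike between regions was tested directly. The difference of the 2 log2 fold changes was 0.63 ± 0.42 for Gm42418, 0.52 ± 0.24 for AY036118, 0.41 ± 0.27 for Lars2 and 0.37 ± 0.25 for Cmss1, and edgeR called 0 of 4 (adjusted p = 0.940 to 0.942, 1 of 4 at an unadjusted p under 0.05, 0 of 4 by DESeq2, 0.0193% of all genes called).

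The ratios between the 4 transcripts within a library separated the members. For every 100 UMIs of Gm42418 there were 20.1 to 21.8 of Cmss1 in the 3 SPF libraries of the PFC and 23.6 to 24.4 in the 3 CGF libraries. The same ratio was 15.1 to 26.2 in the SPF Hip, 23.7 to 30.9 in the CGF Hip, 28.6 to 39.9 in the GF Hip and 43.8 to 65.0 in the GF PFC. Lars2 stood at 4.02 to 4.57 per 100 UMIs of Gm42418 in the 6 SPF and CGF libraries of the PFC, where both groups overlapped. AY036118 stood at 1.45 to 1.59 in SPF mice and at 1.94 to 2.22 in CGF mice of the PFC, against 4.15 to 9.93 in the SPF and CGF Hip.

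From Hip to PFC of the same mouse, Cmss1 gained 20.7 to 21.8 CPM for every 100 gained by Gm42418 in SPF mice, and 23.4 to 24.5 in CGF mice. The gain of Lars2 was 3.75 to 4.32 and 3.87 to 4.44, and that of AY036118 was 1.16 to 1.26 and 1.72 to 1.94. The 2 groups did not overlap for Cmss1 and AY036118, and how many of all genes separated in this way was not counted. For Cmss1 the gains largely repeat the PFC ratios above, since its Hip level and that of Gm42418 were low beside the PFC levels. These values are descriptions over 3 mice a group.

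**Figure D2:**
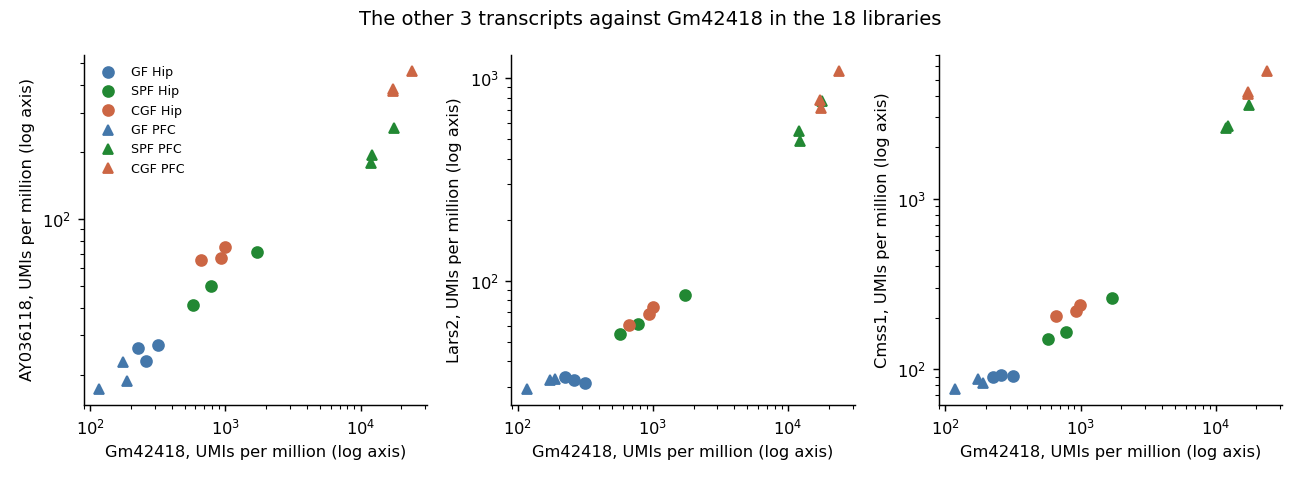
AY036118, Lars2 and Cmss1 against Gm42418 in the 18 libraries, all in CPM on log axes; circles are Hip and triangles PFC libraries, coloured by group. The GF libraries lie at the lower left and the SPF and CGF libraries of the PFC at the upper right, and for AY036118 the CGF triangles (378 to 465) lie above the SPF triangles (179 to 256). For Cmss1 they also do (4120 to 5646 and 2601 to 3559).

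In library sums, fewer cells of a type and less RNA per cell cannot be told apart, so the 6 main cell types are also given separately. Cell types were gated per nucleus on marker genes, which placed 89627 nuclei in 6 types and left 42686 ungated. Of the nuclei in the 6 types, 36144 lay near the gate's limits, most of them excitatory neurons. The difference between groups was present in each of the 6 types. In the Hip, the log2 fold change of GF over SPF for Gm42418 lay between -2.27 and -1.85 over the types, and in the PFC between -6.58 and -6.18. For Cmss1 the ranges were -1.54 to -1.07 and -5.52 to -4.84, for Lars2 -1.67 to -1.03 and -4.89 to -4.00, and for AY036118 -1.68 to -0.93 and -4.37 to -2.92.

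Excitatory neurons had the lowest mean level of all 4 transcripts in both regions, and the highest was in a type of glia. Not every glial type lay above interneurons. For AY036118 in the GF PFC, interneurons held 26.0 ± 3.9 CPM (UMIs per 1000000 UMIs of that type, mean ± SD, n = 3), against 21.6 to 21.9 in oligodendrocytes, OPC (oligodendrocyte precursor cells) and microglia. In the PFC of SPF mice, Gm42418 held 34234 ± 9242 CPM in astrocytes and 29208 ± 7397 in oligodendrocytes. In microglia the SPF level was 27551 ± 10449, and in excitatory neurons 11548 ± 2353. In the GF PFC the same types held 348 ± 68, 330 ± 79, 395 ± 112 and 118 ± 25. The least covered values were those of microglia and OPC, with as few as 13 UMIs of AY036118 in a GF library of the PFC.

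The order of types was tested over the 9 libraries of a region, pairing types within a library, by a two-sided exact sign-flip permutation test whose smallest p is 0.0039, adjusted over 40 neighbouring pairs. For Gm42418 in the Hip the order was oligodendrocytes, microglia, astrocytes, OPC, interneurons and excitatory neurons. The top pair did not separate (exact p = 0.582, higher in 6 of 9 libraries), whereas OPC exceeded interneurons by 0.95 log2 units and interneurons exceeded excitatory neurons by 0.22, each in 9 of 9 libraries (adjusted p = 0.0104, exact permutation). In the PFC the order was astrocytes, oligodendrocytes, microglia, OPC, interneurons and excitatory neurons, and oligodendrocytes and microglia did not separate (exact p = 0.816). Interneurons exceeded excitatory neurons in 9 of 9 libraries for each of the 4 transcripts in both regions, by 0.16 log2 units for Lars2 in the PFC and by 0.46 for AY036118 in the PFC (adjusted p = 0.0104 for each, exact permutation). OPC and interneurons did not separate for AY036118 in the PFC (adjusted p = 0.200, exact permutation, higher in OPC in 7 of 9 libraries) or for Lars2 in the Hip (adjusted p = 0.0951, 7 of 9). Among oligodendrocytes, astrocytes and microglia, neighbours mostly did not separate. In all, 21 of the 40 pairs passed, and 18 under a stricter gate, which put microglia at the top for Gm42418 in both regions.

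The span from the highest type to excitatory neurons differed between members. In the Hip it was 3.37-fold for Gm42418, 2.56-fold for Cmss1, 2.02-fold for AY036118 and 1.65-fold for Lars2. In the PFC it was 2.86-fold, 1.75-fold, 2.63-fold and 1.58-fold, so Lars2 was the most even over types in both regions. Nuclei of glia were also shallower than those of neurons. Median UMIs per library were 1588 to 3381 for microglia, oligodendrocytes and astrocytes of the Hip against 6280 to 11302 for excitatory neurons, and 747 to 2810 against 3133 to 10303 in the PFC. The part of depth in the order of types was not tested.

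**Figure D3:**
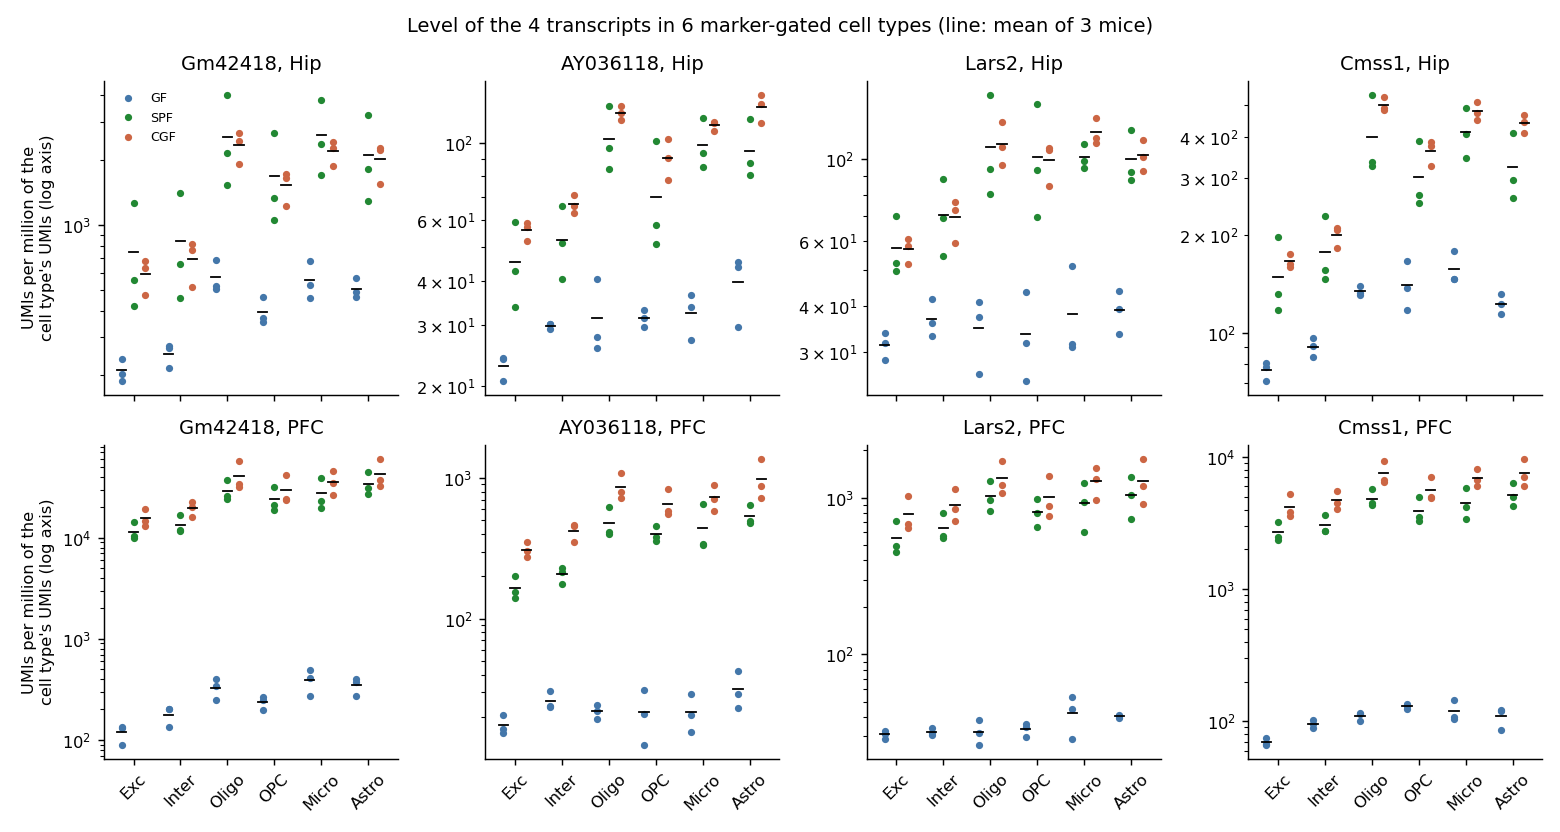
Level of the 4 transcripts in 6 marker-gated cell types, in CPM of that type's UMIs on a log axis, with Hip in the upper and PFC in the lower row; points are libraries, coloured by group, and lines are means of 3 mice. GF points lie below the others in each type, and excitatory neurons (Exc) have the lowest mean in each group and region.

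Between CGF and SPF mice, 24 tests (4 transcripts in 6 types) were made in each region. The 6 types came from the same mice, so these tests are not independent. The shares of all genes below are those of edgeR at the adjusted threshold. None is given for the counts at an unadjusted p or by DESeq2, so nothing is read from those counts. In the Hip edgeR called 0 of 24, with 5 at an unadjusted p under 0.05 and 0 by DESeq2, where the share of all genes called was 0.466% in excitatory neurons, 0.144% in interneurons, 0.128% in oligodendrocytes, 0.0691% in OPC, 0.187% in microglia and 0.0617% in astrocytes. In the PFC edgeR called 2 of 24, with 17 at an unadjusted p under 0.05 and 4 by DESeq2, where the shares of all genes called were 0.278%, 0.11%, 0.203%, 0.0552%, 0.0279% and 0.174% in the same order of types. Both were AY036118, which was higher in CGF mice by 1.04 ± 0.15 log2 units in interneurons (adjusted p = 0.00733) and by 0.86 ± 0.18 in oligodendrocytes (adjusted p = 0.0350). Its value in the other 4 types was 0.73 to 0.90 (adjusted p = 0.0534 to 0.558). Some alternatives called it there too. In excitatory neurons these were DESeq2 (adjusted p = 1.92e-04), and edgeR with the stricter gate (0.0402), without CGF mouse 18 (0.0343) or without SPF mouse 32 (0.0125). In astrocytes they were edgeR without CGF mouse 19 (0.0353) or GF mouse 5 (0.0337). The highest adjusted p over alternatives was 0.172 in excitatory neurons and 0.403 in astrocytes. Without SPF mouse 30 or SPF mouse 31 edgeR called 0 of 24, with an adjusted p of 0.0621 and 0.0842 for AY036118 in interneurons and of 0.223 and 0.272 in oligodendrocytes. The oligodendrocyte call was also lost without CGF mouse 18 (adjusted p = 0.177) or 19 (adjusted p = 0.0607) and under the stricter gate (adjusted p = 0.0926). Over all alternatives its adjusted p ranged from 0.00465 to 0.272, and in interneurons from 1.09e-06 to 0.0842. Fold changes of the 4 transcripts were above 0 in 6 of 6 types of the PFC with all mice. Without CGF mouse 18 they were above 0 in 5 of 6 types for Gm42418 and in 4 of 6 for Lars2. In the Hip, those of Gm42418 were above 0 in 0 of 6 types, in 3 of 6 without CGF mouse 18 and in 6 of 6 without SPF mouse 32. Those of Lars2 in the Hip were above 0 in 6 of 6 types, in 3 of 6 without CGF mouse 17 or 19, and in 2 of 6 without SPF mouse 30 or 31.

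Nearly every nucleus of the SPF and CGF PFC held Gm42418. At least 1 UMI was found in 99.9% or more of nuclei in each SPF and CGF library of the PFC, with a median of 38 to 78 UMIs per nucleus. It was found in 96.5% to 99.8% of nuclei in the SPF and CGF Hip, with medians of 4 to 12, and in 58.6% to 76.6% in GF libraries. With each nucleus thinned to 1000 UMIs, the shares were 99.8% to 100%, 50.2% to 81.8% and 15.4% to 31.5%. Thinning left out 0 to 464 nuclei in each Hip library, 186 to 204 in the GF PFC, and 828 to 1268 in the SPF and CGF PFC. The thinned share for Cmss1 was 89.2% to 98.4% in the SPF and CGF PFC, 17.3% to 28.4% in the Hip and 7.98% to 10.3% in GF libraries. A UMI in a nucleus may come from RNA free in the suspension, and no cell type is known to lack these transcripts that could give the background.

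Across the nuclei of a library, Gm42418 and Cmss1 rose and fell together where both were abundant. Spearman's rho between their shares of UMIs was 0.61 to 0.72 in the 6 SPF and CGF libraries of the PFC (5710 to 7560 nuclei each), 0.14 to 0.41 in those of the Hip, and -0.02 to 0.02 in the 6 GF libraries. In the PFC of SPF and CGF mice, rho was 0.23 to 0.38 for Gm42418 with Lars2, 0.28 to 0.44 for Lars2 with Cmss1, and 0.17 to 0.44 for Gm42418 with AY036118. After thinning to 1000 UMIs, rho for Gm42418 with Cmss1 was 0.37 to 0.51 in the PFC and 0.10 to 0.22 in the Hip of SPF and CGF mice. At full depth within excitatory neurons, it was 0.44 to 0.62 in the SPF and CGF PFC and 0.04 to 0.29 in the SPF and CGF Hip. Within oligodendrocytes it was 0.43 to 0.61 and 0.03 to 0.22. These are descriptions over nuclei, which share a library and, since the shares have the nucleus's UMIs as denominator, its depth.

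**Figure D4:**
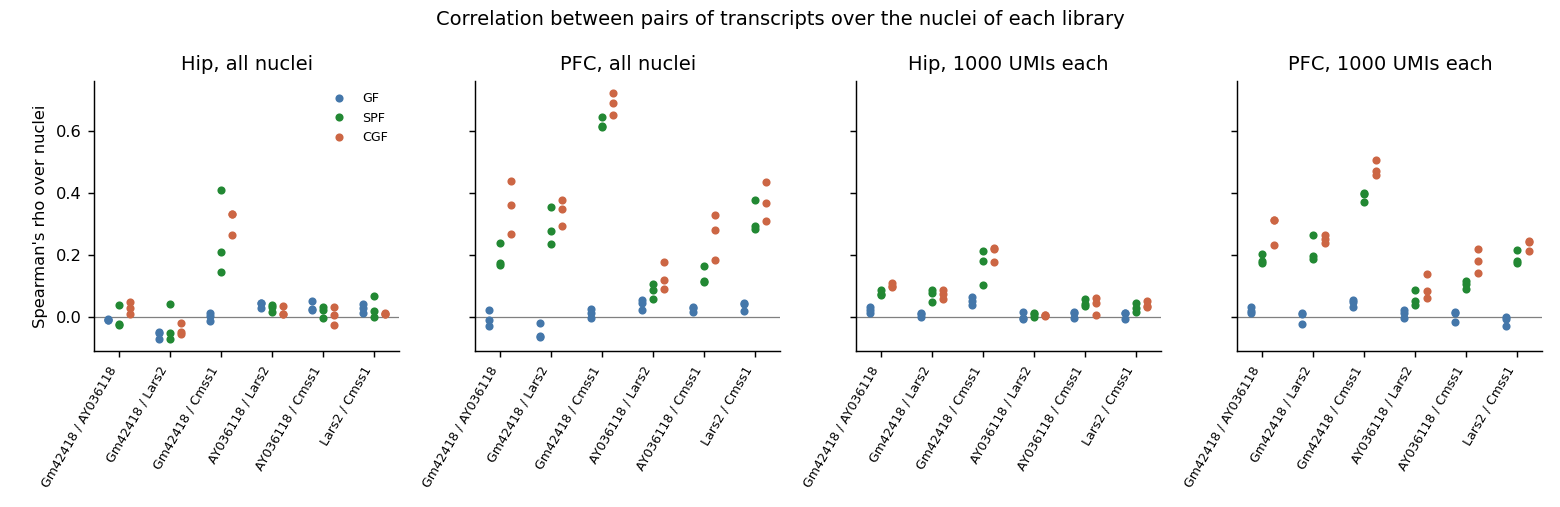
Spearman's rho over the nuclei of a library for each pair of transcripts, with all nuclei at their own depth (2 left panels) and with each nucleus thinned to 1000 UMIs (2 right panels); points are libraries, coloured by group. In the PFC the SPF and CGF points lie above the GF points for Gm42418 with Cmss1, at 0.61 to 0.72 and, thinned, at 0.37 to 0.51.

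Gm42418 took a larger share of UMIs in shallow nuclei. Its rho with the UMIs of the nucleus was -0.86 to -0.74 in the SPF and CGF PFC. It was -0.77 to -0.63 in the SPF and CGF Hip and -0.35 to -0.14 in GF libraries. Within excitatory neurons of the SPF and CGF PFC it was -0.67 to -0.41. These rho are partly built in, since the UMIs of the nucleus are the denominator of the share. After thinning, which left out the shallowest nuclei, the median rho was -0.63 in the SPF and CGF PFC. It was -0.54 in the SPF and CGF Hip and -0.28 in the GF libraries of each region. GF libraries held a median of 1 UMI of Gm42418 per nucleus, so their smaller rho is not read as a weaker relation. With the nuclei of a library cut into 4 equal bins by depth, the Gm42418 level in the deepest bin was 0.220 to 0.299 of that in the shallowest in the SPF and CGF PFC, 0.174 to 0.209 in those of the Hip, 0.217 to 0.271 in the GF Hip and 0.190 to 0.218 in the GF PFC. The ratio was below 1 for the other 3 transcripts in each library as well, at 0.194 to 0.276 for AY036118, 0.413 to 0.518 for Lars2 and 0.383 to 0.474 for Cmss1 in the SPF and CGF PFC. In the SPF and CGF Hip, rho with the UMIs of the nucleus changed sign with thinning, from 0.04 to 0.13 to -0.12 to -0.08 for AY036118 and from 0.05 to 0.15 to -0.11 to -0.07 for Lars2. GF libraries showed the same turn for AY036118 and Cmss1 in both regions and for Lars2 in the Hip. For Cmss1 in the GF PFC it went from 0.07 to 0.15 to -0.14 to -0.07. Within excitatory neurons the Gm42418 ratio of deepest to shallowest bin was nearer to 1, at 0.316 to 0.497 in the SPF and CGF Hip and 0.447 to 0.642 in the SPF and CGF PFC.

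With the mitochondrial share, Gm42418 and Cmss1 moved the other way in SPF and CGF libraries. The bin of nuclei with the highest mitochondrial share, of 4 equal bins, had 1.56 to 2.60 times the Gm42418 level of the lowest in the SPF and CGF PFC, and 1.82 to 3.57 times in the Hip. For Cmss1 the ratios were 1.82 to 2.48 and 1.79 to 2.81. The bins were not matched for depth, with which both transcripts also moved, and the part of depth in these ratios was not tested. In GF libraries, the Gm42418 ratio was 1.58 to 2.07, although GF libraries of the Hip held a larger mitochondrial share than the SPF and CGF libraries of the Hip. Over nuclei, rho with the mitochondrial share was 0.36 to 0.64 for Gm42418 and 0.42 to 0.61 for Cmss1 in the SPF and CGF PFC, and after thinning 0.21 to 0.46 and 0.27 to 0.41. In the SPF and CGF Hip it was 0.42 to 0.60 for Gm42418 and 0.11 to 0.29 for Cmss1. For AY036118 and Lars2 in the SPF and CGF Hip, the highest bin had 1.30 to 2.27 and 1.41 to 1.96 times the level of the lowest. Their rho was -0.09 to 0.01 and -0.07 to 0.02 at full depth, and 0.04 to 0.10 and 0.03 to 0.08 after thinning. Within excitatory neurons the Gm42418 ratio of highest to lowest bin was 1.28 to 1.87 in the SPF and CGF Hip and 1.15 to 1.59 in the SPF and CGF PFC, below the ratios over all nuclei of the same region at both ends.

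**Figure D5:**
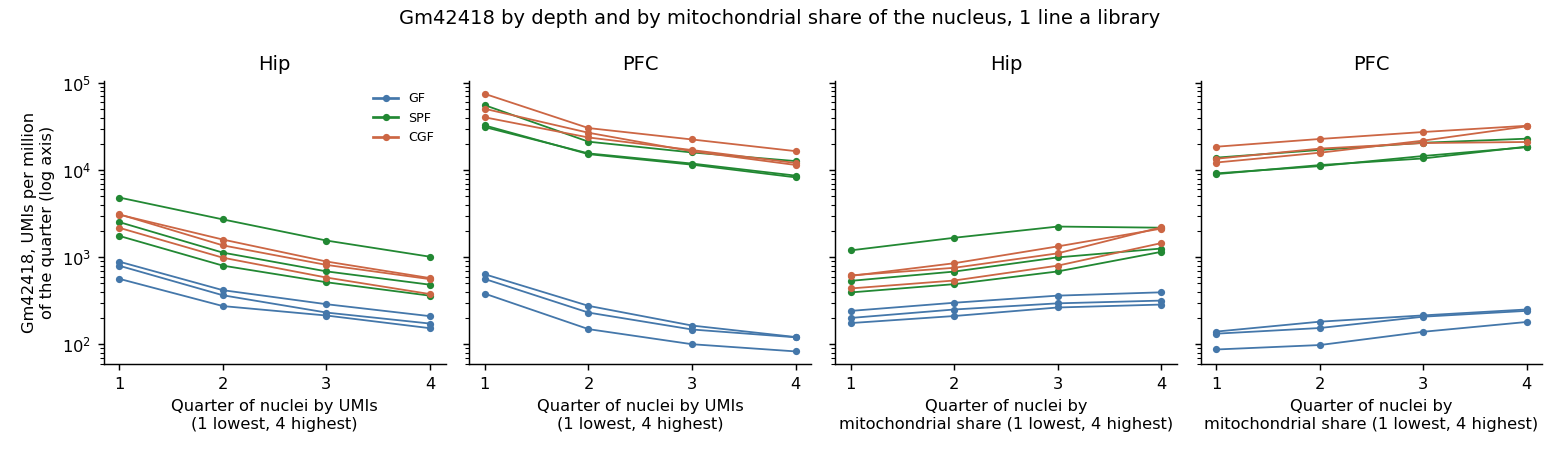
Gm42418 level, in CPM on a log axis, in 4 equal bins of the nuclei of each library ordered by UMIs (2 left panels) or by mitochondrial share (2 right panels); each line is a library, coloured by group. Lines fall with depth and rise with mitochondrial share over most of their course, and the GF lines stay below the others in the PFC in each bin.

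Across libraries, the relation to mitochondrial share and to depth was examined within the 6 SPF and CGF libraries of a region, since GF libraries form a separate cluster. Of 16 relations (4 transcripts, 2 regions, 2 measures) none passed an exact permutation test after adjustment (lowest adjusted p = 0.873 for Pearson's r and 0.839 for Spearman's rho). The largest Pearson's r was that of Gm42418 with mitochondrial share in the Hip, with r = 0.71 (exact p = 0.106), rho = 0.60 (exact p = 0.242) and r = 0.85 without the 2 libraries farthest from the median share. In the PFC the same relation gave r = 0.29 (exact p = 0.588), rho = 0.43 (exact p = 0.419) and r = -0.72 without the 2 farthest. The largest Spearman's rho in size was that of Cmss1 with the median UMIs per nucleus in the PFC, at -0.66 (exact p = 0.175), with r = -0.38 (exact p = 0.485) and r = -0.37 without the 2 farthest. With 6 libraries, even r = 0.71 had an unadjusted exact permutation p of 0.106. After adjustment over 16 relations only a very strong relation could pass, so no absence of a relation is read from this.

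Over library sums, the gene whose level was most like that of Gm42418 was Gm19951, a lincRNA at chr12:99643093-99647221, with Pearson's r of log2 levels of 0.987 over 9 Hip libraries, 0.999 over 9 PFC libraries and 0.996 over all 18. These r values are descriptions over libraries in separate clusters. Gm19951 had 160 to 258 CPM in the CGF PFC, 137 to 205 in the SPF PFC and 1.09 to 13.1 in the other libraries. In the PFC, Cmss1 (0.998), Lars2 (0.997), Ankrd11 (0.997) and BC024063 (0.997) followed, and AY036118 ranked 129th of 18401 genes (0.987). In the Hip the next were Kdm4a, Epb41l5, Tesmin and Lamb1, at 0.976 to 0.980, while Lars2 ranked 14th, Cmss1 26th and AY036118 104th of 19833. Over all 18 libraries Lars2, Cmss1, Cuedc1 and AY036118 followed Gm19951, at 0.983 to 0.988.

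A list of 11 companion genes, drawn up from general knowledge of such libraries and with results of these data known, held 7 that were counted and tested. The counts and adjusted p of its members are therefore not independent of the choice, and are given as a description. Between PFC and Hip, 5 of the 7 were higher in SPF and in CGF mice and none lower, where 32.1% and 32.7% of all genes were higher and 66.2% and 66.5% were called in either direction. The median log2 fold change of the 7 was 0.71 and 1.12. The largest was Gm26917, a lincRNA 616 bases upstream of Gm42418 on the same strand, at 3.35 ± 0.16 in SPF mice (adjusted p = 1.49e-11) and 3.95 ± 0.16 in CGF mice (adjusted p = 3.08e-12). Camk1d, a calcium/calmodulin-dependent kinase, rose by 2.19 ± 0.16 and 2.44 ± 0.16 (adjusted p = 3.06e-09 and 8.36e-10). Cdk8, a kinase of the Mediator complex, rose by 0.64 ± 0.09 and 1.37 ± 0.09, and in the PFC it was also higher in CGF than in SPF mice, by 0.73 ± 0.10 (adjusted p = 0.0121). Gphn, the inhibitory synapse scaffold gephyrin, rose by 0.71 ± 0.13 and 1.12 ± 0.13. Filip1l, which lies on the other strand inside the span of Cmss1, rose by 0.97 ± 0.17 and 0.92 ± 0.17. Malat1 had log2 values of 0.14 ± 0.12 (adjusted p = 0.286) and 0.05 ± 0.12 (adjusted p = 0.729), and Jarid2 of 0.13 ± 0.08 (adjusted p = 0.153) and 0.04 ± 0.08 (adjusted p = 0.665). In GF mice the 7 had a median of -0.03 between the regions.

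Genes of the machinery that makes rRNA are given for the same comparison by their counts and medians, with no test of the lists. Among all genes, 32.1% rose and 34.1% fell in SPF mice and 32.7% and 33.8% in CGF mice, 66.2% and 66.5% in either direction. Of 17 genes of RNA polymerase I and its factors, 10 were higher in the PFC than in the Hip and 2 lower in SPF mice, and 11 and 2 in CGF mice. The medians were 0.63 and 0.69, against -0.05 and -0.01 over all genes. Taf1d, a subunit of the promoter selectivity factor, rose by 2.83 ± 0.11 in SPF and 2.79 ± 0.11 in CGF mice, and Ubtf, the upstream binding factor, by 1.66 ± 0.09 and 1.65 ± 0.09, while Rrn3 and Top1 fell, by 0.42 and 0.38 in SPF mice. Of 50 pre-rRNA processing genes, 29 were higher and 7 lower in SPF mice and 34 and 5 in CGF mice (medians 0.55 and 0.56). Nop56, a core protein of box C/D particles, rose by 2.69 ± 0.14 and 2.61 ± 0.13, and Exosc3, a subunit of the RNA exosome, fell by 0.97 and 0.56. Of 18 mitochondrial aminoacyl-tRNA synthetases, the family of Lars2, 7 were higher and 4 lower in SPF mice and 8 and 4 in CGF mice (medians 0.28 and 0.14). Vars2 rose by 2.41 ± 0.26 and 2.63 ± 0.26, and Aars2 by 2.16 ± 0.28 and 2.35 ± 0.28, whereas Rars2 fell by 0.91 and 0.90 and Wars2 by 0.88 and 0.87. In GF mice, the medians of these 3 lists between the regions were -0.11, -0.10 and -0.03. Other comparisons gave another picture. Between CGF and SPF mice, 0 of 17, 0 of 50 and 0 of 18 were called in either region, where 0.333% (Hip) and 0.418% (PFC) of all genes were. For GF over SPF mice, the medians were 0.32, 0.15 and -0.14 in the Hip, against 0.03 over all genes. In the PFC they were -0.60, -0.39 and -0.15, against 0.02.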

How the data were processed

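Per the labels, nuclei of the Hip and PFC were run on a 10x 3′ droplet kit (V3.1 in the protocol, an earlier version in the design text), and the authors made 1 matrix of raw UMI counts for each library with Cell Ranger 3.1.0 on mm10 (Ensembl gene models). Whether introns were counted and whether strand was used is not given in the sources used here. Reads from rDNA repeats can be shared with unplaced copies, so Gm42418 and AY036118 counts are uncertain. The deposited counts were used as they stood. Barcodes with fewer than 200 genes (0 found) or over 10% mitochondrial UMIs (13 mt- genes) were removed, as in the study. No doublet caller was run. Nuclei were gated on marker genes. For types other than excitatory neurons, at least 2 markers of the list had to be detected. Their summed level had to be at least 1.5 log2 units over the library mean and 1 over the next list (pseudocount 0.5, stricter gate 3, 2 and 1.5). Excitatory neurons were taken from nuclei where no other list reached 1.5 (stricter gate 2). They needed at least 2 of their markers (stricter gate 3) and a summed level merely above the library mean, by a margin in the stricter gate. No gap to the next list was asked of them. Levels are UMIs per 1000000 UMIs (CPM) of the library or type, not divided by length, since 3′ libraries tag a transcript at its end. Library sums were tested with edgeR 4.0.16 (R 4.3.3; filterByExpr, TMM, quasi-likelihood), with all 3 groups of a region in a fit and all 18 libraries for PFC against Hip; DESeq2 1.42.0 was an alternative. The call threshold was an adjusted p under 0.05. On simulated counts edgeR recovered 58% (Hip) and 66.0% (PFC) of log2 changes of 1 and 91.8% and 94% of log2 changes of 2. For PFC against Hip it recovered 56.6% and 92.8%. DESeq2 recovered 74% (Hip), 73.2% (PFC) and 63.6% (PFC against Hip) of log2 changes of 1. Genes left unchanged were called 8, 12 and 7 times by edgeR and 55, 28 and 22 times by DESeq2, in the same order. Same-mouse Hip and PFC libraries deviated together from their group means (r = 0.106 to 0.469, 9 mice), and the labels give both the same animal number. Sequences are from GENCODE vM21 (GRCm38), searched with BLAST+ 2.17.0. Intervals and SEs cover these samples only, and each group held 3 mice. The 4 transcripts, the gene lists and the tests were chosen with earlier results of these data known; the named genes are the 4, the 5 most like Gm42418 per region (log2 of level plus 1), the companion list, and up to 2 called members each way of the other lists.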

Additional observations from a re-analysis of the deposited data

How the results depend on the processing

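Fits of library sums were repeated with DESeq2, without the count filter, with library totals (with or without the 4 transcripts) in place of TMM, with sums thinned to the smallest library, on every barcode, and without each mouse. Tests in cell types were repeated with DESeq2, with the stricter gate and without each mouse, the order of types with the stricter gate, and rho across nuclei after thinning. Ratios and correlations with Gm42418 over library sums were not recomputed. Bins were repeated only within excitatory neurons. Pearson's r with mitochondrial share and depth was repeated only without the 2 libraries farthest from the median. The fit with the mouse as replicate block called 14161 genes between PFC and Hip in CGF mice, 14144 in SPF mice and 3 for the difference of the 2 regions, and changed no call of the 4 transcripts. DESeq2 called more genes between CGF and SPF mice, 704 in the Hip, 381 in the PFC and 22 for the difference between regions, and 4 of 24 tests in cell types of the PFC. On simulated counts it also called more unchanged genes than edgeR. Without the filter 124 genes were called in the PFC. Leaving out 1 mouse gave 21 (without CGF mouse 18) to 72 genes in the Hip, 33 (without CGF mouse 17) to 578 (without CGF mouse 18) in the PFC, 1 to 4 for the difference between regions, and 0 to 3 of 24 in cell types. The higher level in PFC than in Hip was kept by each of the 4 transcripts in SPF and in CGF mice under every alternative run on library sums, past the threshold each time. The CGF over SPF value in the Hip turned sign for Gm42418 (-0.47 to 0.35 over left-out mice) and for Lars2 (-0.0568 to 0.226). Lars2 between PFC and Hip of GF mice turned to -0.0416 with library totals and to -0.0418 with totals that leave out the 4 transcripts. The cause was not tested. Between GF and SPF mice, each of the 4 kept its sign under every alternative run on library sums.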

Other observations

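Barcodes that were removed for over 10% mitochondrial UMIs held more Gm42418 than the nuclei kept from the same library. Their level in UMIs per 1000000 UMIs (CPM) was 18092 to 37725 in the SPF and CGF PFC, 2674 to 7655 in the SPF and CGF Hip and 593 to 849 in GF libraries. Cmss1 stood at 5133 to 10969, 698 to 1608 and 158 to 299 in the same barcodes. Malat1, the nuclear long non-coding RNA that ranked above Gm42418 in the SPF and CGF PFC, was higher in GF libraries than in the others, unlike Gm42418. It stood at 63260 to 73635 CPM in GF libraries of both regions and at 29063 to 38906 in the SPF and CGF libraries.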
